A study of Mus musculus with 12 samples.

Results

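The 3 genes described here, C130050O18Rik, Cd300lb and Slco2b1, were the genes that fell most when embryonic intestinal stromal cells were exposed to LPS. They were picked by their fitted log2 fold change between embryonic LPS and embryonic PBS libraries, among the genes called as fallen in that comparison, and they are 3 of the 23329 genes listed and of the 13038 genes that passed the filter on low counts. Because that contrast chose them, their embryonic values are given as a description with no test. Their change with LPS in adult cultures was not used in the choice and was tested where counts allowed. The adult libraries did share the fit behind the calls, including its estimate of the spread. The mRNAseq libraries came from primary stromal cells of the small intestine of C57BL6/J mice, and 4 groups of 3 libraries were compared, to see how the embryonic and the adult stroma answer an inflammatory stimulus. Embryonic cultures were made from E14.5 embryos, each from a pool of 6, and adult cultures were made from 3 adult mice. Cells were used after a small number of passages and were given lipopolysaccharide (LPS) of E. coli O111:B4, stated as 10 µg/µl, or the vehicle PBS, for 6 h. All groups were wild type. The cultures were not sorted before RNA extraction, so each library holds RNA of every cell type that grew in the dish, and the leukocytes among them are those that survived the passages.

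LPS, from the outer membrane of Gram-negative bacteria, is sensed by Toll-like receptor 4 on macrophages and many other cells. Cd300lb encodes an activating receptor of the CD300 family on the surface of myeloid cells, which signals through the adaptor DAP12 (Tyrobp). Slco2b1 encodes OATP2B1, a membrane transporter for organic anions such as steroid sulfates, and in mice its transcript is known from microglia and other resident macrophages. C130050O18Rik carries the name of a cDNA clone, and its function is not described here. Ptprc encodes CD45, the pan-leukocyte surface protein, and was used as the measure of leukocyte RNA in each library.

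All 3 genes are protein coding in GENCODE vM21 (GRCm38). C130050O18Rik lies at chr5:139405280-139415623 on the plus strand, within the longer gene 3110082I17Rik, which is on the opposite strand and shares exonic positions with it. Cd300lb lies at chr11:114922781-114934386 on the minus strand, in the cluster of CD300 genes. Slco2b1 lies at chr7:99657804-99711340 on the minus strand, and 2 antisense genes, Gm15635 and Gm34280, overlap its exons. The library kit kept the strand, and reads on the opposite strand within the 3 genes numbered between 0 and 5 per library, so few reads of the antisense partners fell within them.

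The start of each gene is shown because the 3 genes were all chosen for a fall in the embryonic cultures. The stretches printed run from 120 bases before to 20 bases after the annotated start, 5′ to 3′ on the strand of the gene, and are from the RefSeq promoter table of GRCm38.p6, in which all 3 genes were matched. Slco2b1 has 3 entries there, of which the outermost start was taken. Capitals mark matches to the short motifs searched.
C130050O18Rik, chr5:139405164-139405303, plus strand: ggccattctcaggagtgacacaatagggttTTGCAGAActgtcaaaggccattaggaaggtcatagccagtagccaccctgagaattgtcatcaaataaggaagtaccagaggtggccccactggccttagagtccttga
Cd300lb, chr11:114934352-114934491, minus strand: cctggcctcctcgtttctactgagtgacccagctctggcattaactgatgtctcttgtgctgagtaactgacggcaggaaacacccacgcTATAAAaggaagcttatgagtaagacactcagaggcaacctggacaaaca
Slco2b1, chr7:99711321-99711460, minus strand: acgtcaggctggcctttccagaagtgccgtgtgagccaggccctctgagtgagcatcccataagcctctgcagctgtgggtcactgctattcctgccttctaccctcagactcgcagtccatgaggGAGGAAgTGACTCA
Motifs were searched on both strands of the table's whole windows, from 250 bases before to 50 after each start, for the 3 genes and for all other entries alike, and every match in the 3 genes lay within the stretch printed. The letters searched were GAGGAA (the core bound by PU.1, a master regulator of myeloid genes), TGANTCA (AP-1), TTGCNNAA (C/EBP), GAAANNGAA (interferon-stimulated response) and TATAAA for the box bound by the general transcription factor TFIID. C130050O18Rik held a C/EBP match 90 bases before its start, and 10.8% of the 32851 windows in the table held that motif at any position. Cd300lb held this last motif, the TATA box, 30 bases before its start, and 13.6% of windows held it. Slco2b1 held a PU.1 core at position 7 after its start, a motif held by 28.3% of windows, followed at position 14 by an AP-1 match, which reads alike on both strands and occurred in 7.81% of windows. The interferon-stimulated motif, present in 8.56% of windows, was in none of the 3 windows, and no motif was shared by the 3 genes. A match describes the letters only and was not read as a bound site.

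Depth was similar across the series. Between 18850224 and 32672370 reads per library were counted on genes. A gene was taken as detected above a floor of 3 counts. This floor was worth between 0.0897 and 0.145 CPM (counts divided by the TMM-adjusted library size). The limit that 3 counts set takes in counting error alone. Fibroblast markers summed to between 7969 and 23309 CPM per library, and smooth muscle and myofibroblast markers to between 12608 and 26233. Epithelial markers summed to between 16.5 and 114 CPM. The 16 general myeloid genes (such as Lyz2, Cd68 and C1qa) summed to between 272 and 3165 CPM in embryonic PBS libraries, 295 and 3110 in embryonic LPS, 22.2 and 200 in adult PBS, and 18.6 and 227 in adult LPS, with the top embryonic values in both replicate 3 libraries and no gene of the list at 0 in any group. Neutrophil and mast cell markers reached at most 0.0701 and 0.311 CPM in embryonic libraries, and 6 lymphocyte markers at most 1.48. Endothelial markers were high in both adult replicate 2 libraries, at 1708 CPM with LPS and 1773 with PBS, and next in adult replicate 3.

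C130050O18Rik was present in every embryonic PBS library and absent from every embryonic LPS library. With PBS it had 22, 34 and 200 counts in replicates 1, 2 and 3, or 0.663, 1.04 and 5.98 CPM. With LPS it had 0 counts in all 3 libraries, against a limit of 3 counts that a count of 0 allows. Replicate 3 held 200 of the 256 PBS counts. Pair by pair, LPS was at least 6.30-fold, 10.0-fold and 51.3-fold lower in replicates 1, 2 and 3. These limits follow the PBS count of each pair, because every LPS library was at 0. Over the group means the level was at least 23.6-fold lower.

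Cd300lb, the activating myeloid receptor, had 46, 139 and 424 counts in the embryonic PBS libraries, or 1.39, 4.24 and 12.7 CPM. With LPS, 0, 2 and 1 counts were left, all of them at or under the floor of 3. No LPS library came near its PBS partner. The pairs were at least 13.2-fold, 40.9-fold and 109-fold lower with LPS, and the group mean was at least 56.3-fold lower. The limit in each pair was higher than that of C130050O18Rik, in step with the higher PBS counts of Cd300lb.

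Slco2b1, the organic anion transporter, had 78, 85 and 723 counts with PBS, or 2.35, 2.59 and 21.6 CPM. With LPS it had 1, 7 and 9 counts, or 0.0351, 0.242 and 0.350 CPM. It was thus the only one of the 3 genes still above the floor after LPS, in replicates 2 and 3. Here a fold could be measured in those replicates, 10.7-fold lower in replicate 2 and 61.9-fold lower in replicate 3, while replicate 1 was at least 22.4-fold lower. The group mean was 8.85 ± 11.1 CPM (SD, n = 3) with PBS and 0.209 ± 0.160 with LPS, which is at least 38.1-fold lower with replicate 1 set to the floor.

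**Figure D1:**
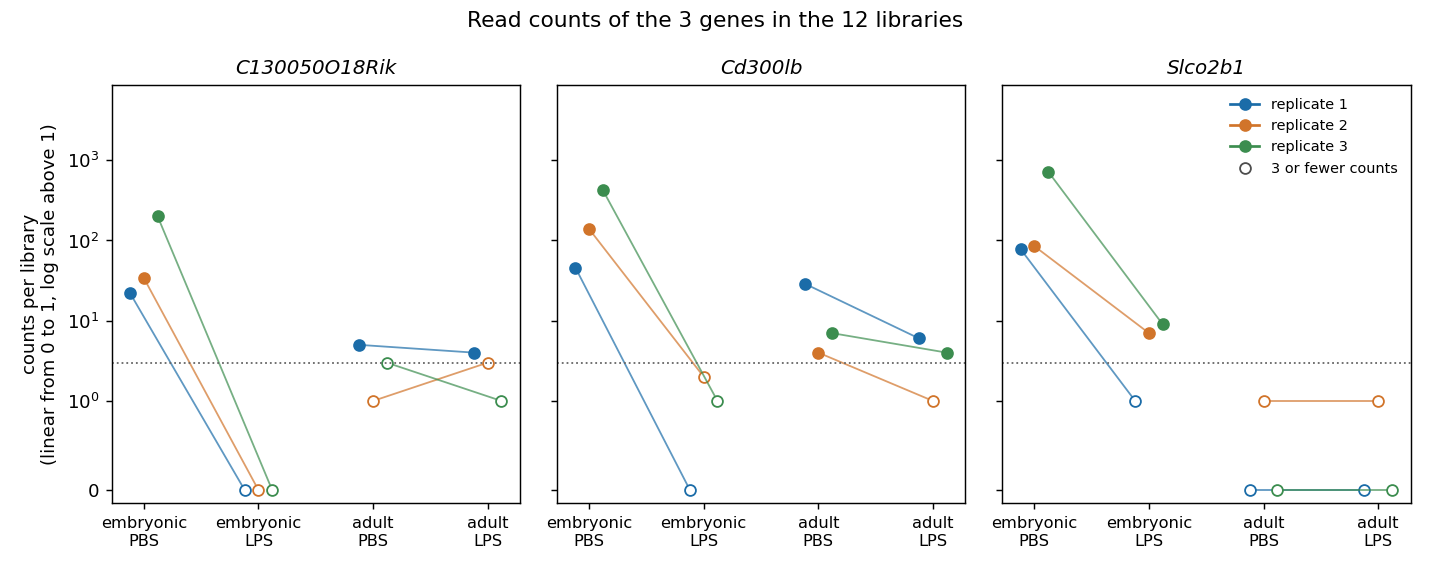
Read counts of C130050O18Rik, Cd300lb and Slco2b1 (vertical axis, linear from 0 to 1 and logarithmic above) in each of the 12 libraries by group; lines join libraries of a stage that share a number, open circles are libraries at 3 counts or fewer, and the dotted line is that floor. Every embryonic pair drops, with C130050O18Rik at 0 in the 3 LPS libraries, while the adult libraries stay between 0 and 29 counts.

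In all 3 genes the PBS level was highest in replicate 3, the culture with the most myeloid RNA. The embryonic PBS and LPS values of a gene never overlapped, but this contrast chose the genes, so their separation is no separate result. Over all genes tested, 2493 (19.1%) were lower with LPS in all 3 embryonic pairs. The share of all genes without overlap was not counted. Per kilobase of exon (3.18, 2.92 and 5.96 kb for C130050O18Rik, Cd300lb and Slco2b1), the order of the 3 genes was the same in each embryonic PBS library. Cd300lb led with 0.477, 1.45 and 4.35 CPM per kb, Slco2b1 followed with 0.394, 0.435 and 3.63, and C130050O18Rik had 0.208, 0.327 and 1.88. Cd300lb and Slco2b1 were close together in replicates 1 and 3. Ptprc had 0.411, 0.533 and 3.23 CPM per kb in the same libraries, a level between those of the 3 genes.

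In the edgeR model of all 12 libraries (quasi-likelihood test, called at an adjusted p under 0.05 and a change of at least 4-fold), the fitted log2 fold changes used for the choice were −9.21 for C130050O18Rik, −7.24 for Cd300lb and −5.39 for Slco2b1, with standard errors of 1.52, 1.24 and 1.10. A fitted value of a gene with no counts left depends on the fit and is not a measured fold. The 3 genes were among the 7 called as fallen, 0.0537% of the genes tested, and among 50, or 0.383%, when the replicate number was added as a block. By fitted change they ranked 1, 2 and 5 from the bottom. Just inside the choice stood Slco2b1, and just outside it, also called, was Cebpa, a transcription factor of the myeloid lineage, at −4.77. Cnr2, the peripheral cannabinoid receptor, at −6.85, and Lyl1, a transcription factor of blood cell progenitors, at −5.50, ranked between the members but were not called without the block (adjusted p = 0.0542 and 0.158, edgeR). The other called falls were Fam78a at −4.34, Rab3il1, an exchange factor for Rab proteins, at −4.09, and Lfng, a glycosyltransferase that modifies Notch, at −2.01. Slco2b1 lost its call in DESeq2 and when any of 7 single libraries was left out. Cd300lb lost it without embryonic LPS replicate 3, and C130050O18Rik alone was called without both embryonic replicate 3 libraries. The members were chosen for being called, so their calls show how the choice depends on the fit and give no support to the falls.

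These falls were set against the leukocyte RNA of the same libraries. In bulk RNA, fewer cells of a type and less RNA per cell cannot be told apart. Ptprc had 250, 320 and 1979 counts in the embryonic PBS libraries and 558, 1867 and 4163 with LPS, and was thus higher with LPS in 3 of 3 pairs. The fitted change of Ptprc on the log2 scale was 1.68 (SE 1.08, adjusted p = 0.753, edgeR quasi-likelihood test), and with the replicate block it was 1.84 (adjusted p = 0.00283), under the 4-fold threshold. The 16 myeloid genes, summed, were 1.08, 2.72 and 0.983 times their PBS level in the LPS libraries of replicates 1, 2 and 3. Csf1r, the receptor for the growth factor of macrophages, was 0.366, 1.58 and 0.435 times its PBS level. The 3 members therefore moved opposite to Ptprc in every pair.

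Per 100 Ptprc counts, C130050O18Rik was nearly level across the embryonic PBS libraries, at 8.80, 10.6 and 10.1 in replicates 1, 2 and 3. Slco2b1 stood at 31.2, 26.6 and 36.5, and Cd300lb varied more, with 18.4, 43.4 and 21.4. The spread of the PBS counts across cultures thus shrank once the counts were divided by Ptprc. With LPS, C130050O18Rik had 0 per 100 Ptprc counts in each library, Cd300lb had 0, 0.107 and 0.0240, and Slco2b1 had 0.179, 0.375 and 0.216.

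Relative to Ptprc, the fall in the embryonic pairs was at least 16.4-fold, 66.1-fold and 140-fold for C130050O18Rik. For Cd300lb it was at least 34.2-fold, 270-fold and 297-fold. For Slco2b1 it was at least 58.0-fold in replicate 1, 70.8-fold in replicate 2 and 169-fold in replicate 3. Part of these values is the higher Ptprc count with LPS, and other yardsticks gave smaller falls. The median log2 change over the 3 pairs was −6.05, −8.08 and −6.15 relative to Ptprc for C130050O18Rik, Cd300lb and Slco2b1, and −3.98, −5.57 and −4.08 relative to Csf1r. With no yardstick it was −3.32, −5.35 and −4.48. All of these medians count libraries at or under the floor as 3 counts.

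**Figure D2:**
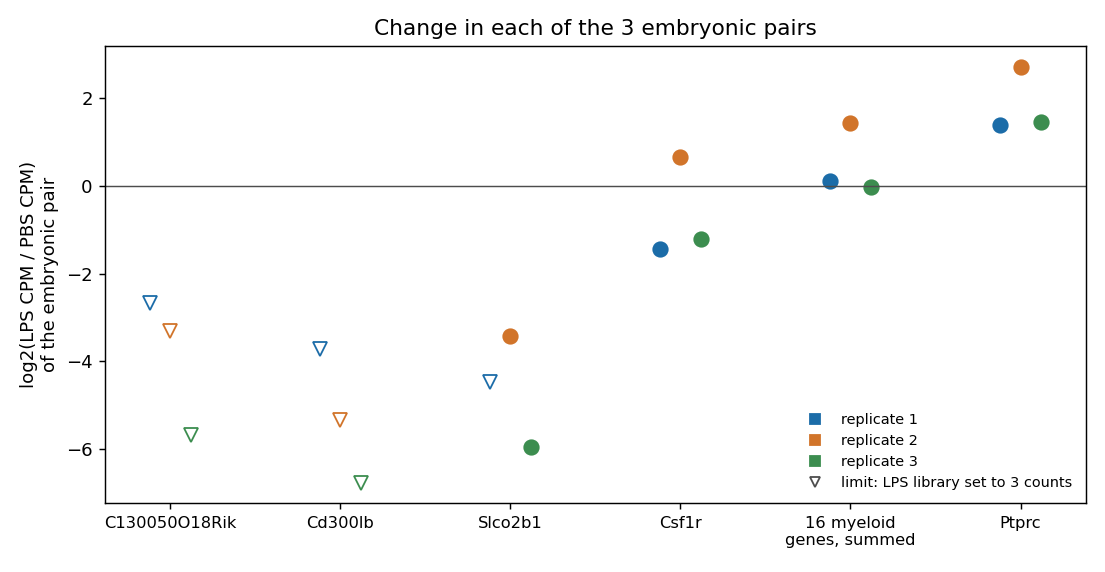
Change of the 3 genes, Csf1r, the summed 16 general myeloid genes and Ptprc in each embryonic pair, as log2 of LPS over PBS CPM (vertical axis); open triangles are upper limits, computed with 3 counts in the LPS library. The 3 genes lie between −2.66 and −6.77 in all pairs, the myeloid sum between −0.03 and 1.44, and Ptprc above 1.

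The adult cultures held far less leukocyte RNA, and the 3 genes were found there in different measure. Ptprc had 61, 7 and 16 counts in the adult PBS libraries and 198, 18 and 55 in adult LPS. Cd300lb was above 3 counts in 5 of the 6 adult libraries, C130050O18Rik in 2 and Slco2b1 in 0, and the totals over the 6 libraries were 51, 17 and 2 counts. Endothelial markers, high in adult replicates 2 and 3, moved with the lower Ptprc counts there, and their part in these levels was not tested.

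Compared with adult PBS, the mean level in embryonic PBS libraries was at least 17.9-fold higher for C130050O18Rik, 12.3-fold higher for Cd300lb and at least 74.5-fold higher for Slco2b1. Per 100 Ptprc counts the order changed. Over the summed libraries C130050O18Rik had 10.0 per 100 Ptprc counts in embryonic PBS and 10.7 in adult PBS. Cd300lb had 23.9 and 47.6, and the adult libraries had 47.5, 57.1 and 43.8, all above the embryonic ones, of which the highest was 43.4. Slco2b1 alone was lower relative to Ptprc in adult PBS, with 1 count against 84 of Ptprc (1.19 per 100), compared with 34.8 per 100 in embryonic PBS. Only the adult PBS replicate 2 library held that count of Slco2b1, and the sums rest on few reads, so these ratios are given without a test.

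**Figure D3:**
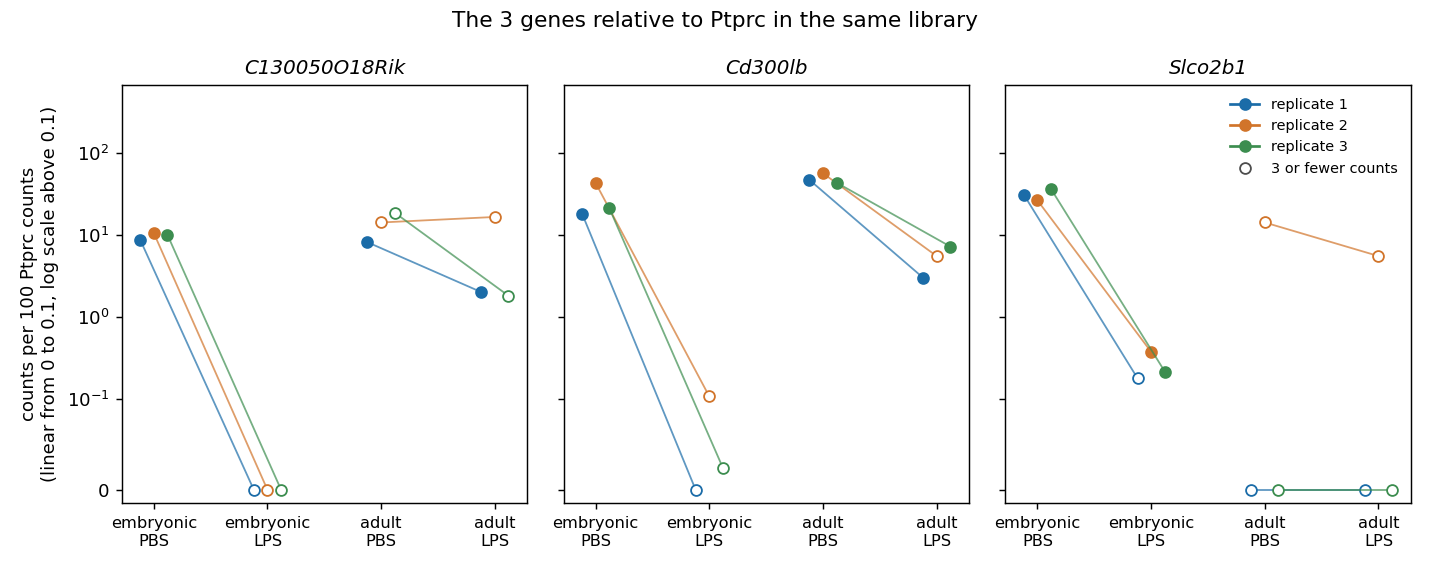
Counts of the 3 genes per 100 Ptprc counts of the same library (vertical axis, linear from 0 to 0.1 and logarithmic above), by group; lines join libraries of the same number and open circles are libraries with 3 or fewer counts of the gene. Cd300lb lies between 43.8 and 57.1 in adult PBS and between 3.03 and 7.27 in adult LPS, and Slco2b1 is at 0 in 4 of the 6 adult libraries.

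Adult LPS against adult PBS is the comparison that did not enter the choice of the genes. Cd300lb had 29, 4 and 7 counts in adult PBS libraries, or 1.06, 0.193 and 0.239 CPM, and 6, 1 and 4 counts with LPS, or 0.195, 0.0308 and 0.173 CPM. It was lower with LPS in 3 of 3 pairs, but the groups overlapped, since the LPS value of replicate 1 was above the PBS value of replicate 2. The share of all genes lower in all 3 adult pairs was not counted, so this direction is a description only. Replicate 1 of adult PBS held 29 of the 40 PBS counts. The fitted log2 change was −1.92 (SE 1.05, adjusted p = 1.00, edgeR quasi-likelihood test), and −0.72 without that library, so Cd300lb did not pass the test in adult cultures.

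In the adult cultures, 0 of the 13038 genes (0%) were called as fallen by edgeR without the block, 141 were lower at an unadjusted p under 0.05 (5 of them by at least 4-fold), DESeq2 called 2, and edgeR with the block called 2 (0.0153%). Cd300lb was not among those called with the block (log2 fold change −1.87, adjusted p = 0.0965). On CPM alone, the exact permutation test of the 3 LPS against the 3 PBS libraries gave p = 0.2 (two-sided, smallest possible p 0.100). The exact tests shuffled libraries without regard to the inferred pairs, so differences between cultures enter their spread. Per 100 Ptprc counts, Cd300lb was 3.03, 5.56 and 7.27 with LPS against 47.5, 57.1 and 43.8 with PBS, and here the groups did not overlap (exact permutation p = 0.100, two-sided, the smallest this design allows). The same held per Csf1r count, whose level hardly differed between adult LPS and PBS (exact permutation p = 0.100). Ptprc itself was higher with LPS in every adult pair, which lowers any ratio to it. Csf1r separated likewise, with 283, 517 and 400 per 100 Ptprc counts with LPS against 797, 629 and 1900 with PBS. So did the 16 general myeloid genes, summed, with 3515, 3356 and 2169 against 8943, 6571 and 8338. The share of all genes that separated in these ways was not counted. These 6 exact tests, 3 for each of 2 genes, could not reach 0.05 with 3 libraries per group, and the lowest Benjamini-Hochberg adjusted exact p over the 6 was 0.3, so they give no call in either direction.

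C130050O18Rik had 5, 1 and 3 counts in adult PBS and 4, 3 and 1 in adult LPS. No direction could be read from these few counts, and the log2 fold change was −0.31 (adjusted p = 1.00, edgeR), with exact permutation p-values (two-sided) of 0.6 on CPM, 0.3 per Ptprc count and 1.00 per Csf1r count. Slco2b1 had 1 count in adult PBS replicate 2, 1 in adult LPS replicate 2 and 0 in the other 4 adult libraries, so both adult groups were at the floor and no fold is given. Summed over libraries, C130050O18Rik had 9 adult counts with PBS and 8 with LPS. For Slco2b1, a fall of the size seen in embryonic cultures was not detectable from so few adult counts. Ptprc itself was higher with LPS in 3 of 3 adult pairs, with a log2 fold change of 1.56 (adjusted p = 1.00, and 0.0654 with the block).

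The relatives and neighbours of the members were then examined in embryonic cultures, against a median log2 fold change of −0.00 over all genes tested. Of the 11 other CD300 family genes listed, 9 were in the files and 2 passed the filter. Cd300a, an inhibitory receptor of the family and the nearest gene to Cd300lb on one side, had 54, 126 and 599 counts with PBS and 10, 20 and 38 with LPS. Its log2 fold change was −3.22 (adjusted p = 0.253, edgeR, and 0.00134 with the block, where it was called). Cd300lf, another inhibitory receptor, had a log2 fold change of −1.83 and was not called either way. Cd300ld, an untested member of the cluster that lies beyond Cd300c on the other side, had 11, 118 and 251 counts with PBS and 6, 89 and 74 with LPS. These 3 relatives kept at least 6 counts in each LPS library, unlike Cd300lb. Of the other CD300 genes in the files that failed the filter, Cd300e had 1, 4 and 0 counts with PBS and 2, 13 and 15 with LPS, Cd300lh had 0, 6 and 15 with PBS and 0, 5 and 6 with LPS, and the rest had at most 3 in any library.

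DAP12 (Tyrobp), the adaptor of Cd300lb, differed little, with a log2 fold change of −0.24 (adjusted p = 0.999, edgeR), at a mean of 56.7 CPM with PBS and 48.2 with LPS. Of the 4 adaptor and kinase genes listed with it, 3 were tested and 0 were called as fallen or risen, against 0.0537% and 1.87% of all genes tested. Their median log2 fold change was 0.87. Fcer1g, another ITAM adaptor, had 0.87 and Syk, the kinase that binds both, 1.72. Hcst (DAP10), which failed the filter, had 2, 9 and 28 counts with PBS and 0, 10 and 20 with LPS.

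Among 14 other transporters of the SLCO family, 4 passed the filter, 0 fell and 1 rose, with a median log2 fold change of 0.66. Over all genes, 7 fell, or 0.0537%, and 244 rose, or 1.87%. With the block, 50 fell, or 0.383%, and 394 rose, or 3.02%. The rise was that of Slco5a1, with 32, 24 and 46 counts with PBS and 145, 47 and 217 with LPS (log2 fold change 2.29, adjusted p = 0.0452, edgeR), a call that was lost when any of 11 of the 12 libraries was left out and was kept with the block. Slco2a1, a prostaglandin transporter, and Slco3a1, which were far more abundant at 37.1 and 116 CPM with PBS, had log2 fold changes of 0.51 and 0.82 and were not called. None of the 4 had a log2 fold change below −0.29, that of Slco1a5. Of those that failed the filter, Slco4a1 had 67, 4 and 58 counts with PBS and 27, 9 and 93 with LPS, and the others had at most 19 in any library.

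The fall of the members was also set beside 2 lists of macrophage genes. Of 16 general myeloid genes, 0 fell and 0 rose, with a median log2 fold change of −0.02 and a range of −0.49 to 2.56. Over all genes tested, 0.0537% fell and 1.87% rose, so 0 calls in a short list is no result about its genes. Cybb, a subunit of the phagocyte NADPH oxidase, was called as risen with the block, where 3.02% of all genes rose and 0.383% fell. Of 14 receptors of resident macrophages, 10 were tested and 0 were called, with a median of −0.45. With the block, Cx3cr1, the fractalkine receptor, was called as fallen (log2 fold change −3.48 without the block) and Timd4, a receptor for phosphatidylserine, as risen (5.05). Cx3cr1 had 789, 866 and 9064 counts with PBS and 171, 150 and 452 with LPS, so its transcript stayed well above the floor. The other 4 receptors failed the filter on low counts. Among them, Gpr34 had 14, 42 and 374 counts with PBS and 0, 7 and 11 with LPS, and P2ry13 had 30, 16 and 356 with PBS and 3, 53 and 32 with LPS. Gpr34 is a receptor for a lysophospholipid and P2ry13 a receptor for ADP, and both are known from microglia. Gpr34, like the members, was low in all 3 LPS libraries, while P2ry13 was higher with LPS in replicate 2. Folr2, a folate receptor of resident macrophages, had 3, 30 and 13 counts with PBS and 3, 72 and 10 with LPS, with no common direction, and Cd163, a scavenger receptor, had at most 6 counts in any embryonic library.

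**Figure D4:**
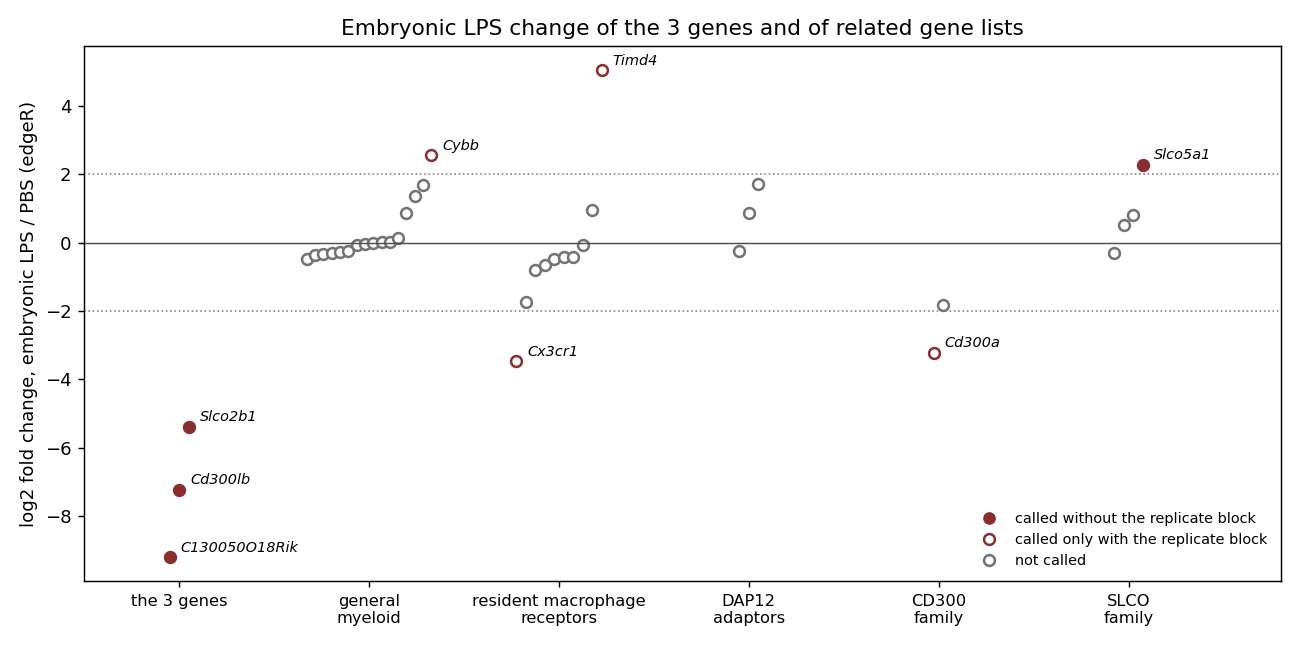
Fitted log2 fold changes of embryonic LPS over PBS (vertical axis) for the 3 genes and for the tested genes of 5 lists; each circle is a gene, filled where called without the replicate block, ringed in red where called only with it and grey where not called, and dotted lines mark 4-fold. The 3 genes lie at −5.39 and below, and the myeloid genes lie around 0 with Cybb highest at 2.56.

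The genomic neighbours of the members showed no common fall. Around C130050O18Rik, the overlapping gene 3110082I17Rik had a log2 fold change of −0.26, Gpr146 −0.66 and Zfand2a 0.11, and none was called. Beside Cd300lb, Gprc5c had 0.72, in contrast to Cd300a on the same side. Beside Slco2b1, Gm4980 had 21, 21 and 135 counts with PBS and 5, 11 and 6 with LPS (log2 fold change −2.73, adjusted p = 0.125, edgeR, and 0.0395 with the block, where it was called), whereas Arrb1, the next gene on, had −0.45.

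Finally, the genes with the most similar levels were found by Pearson's correlation of log2 CPM (prior count 2) over the 12 libraries, which share their cultures and differ in myeloid content, so the coefficients are descriptions only. The 12 include the embryonic libraries that chose the members, so a high correlation between members is partly fixed by that choice. C130050O18Rik and Cd300lb were alike, with r = 0.951, and Slco2b1 followed them less closely, with r = 0.828 to C130050O18Rik and 0.778 to Cd300lb. Cebpa was the nearest gene both to C130050O18Rik (r = 0.984) and to Cd300lb (r = 0.976). It had 173, 303 and 1315 counts in embryonic PBS and 15, 28 and 12 in embryonic LPS libraries. Next to C130050O18Rik, after Cd300lb, came Cnr2 (0.948), E2f2 (0.942), a transcription factor of the cell cycle, and Rab3il1 (0.925). Next to Cd300lb, after C130050O18Rik, came Cnr2 (0.928), Rab3il1 (0.902) and Nfam1 (0.895), an activating receptor with an ITAM motif.

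Slco2b1 had another set of nearest genes. These included Traf3ip3 (0.984), Mfng (0.954), a fringe glycosyltransferase of the Notch pathway, Ppfia4 (0.951) and Tifab (0.941). None of these 4 was among the nearest genes of the other members. Together the lists held 10 genes other than members, with embryonic log2 fold changes down to −6.85. Of these, 2 (Cebpa and Rab3il1) were called as fallen without the block and 10 with it. They were chosen for their likeness to the members, so these counts support nothing beyond it. In adult libraries Cebpa kept 31 to 77 counts with PBS and 28 to 52 with LPS, whereas Traf3ip3, like Slco2b1, was near 0, with a mean of 0.0161 CPM with PBS and 0.0308 with LPS.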

How the data were processed

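Strand-specific, poly(A)-selected mRNAseq libraries of stromal cultures, 12 in all, were analysed, and groups and replicate numbers came from the sample labels. The authors trimmed the reads, mapped them to GRCm38.p6 (mm10) with STAR, allowed at most 1 mismatch and kept unique mappings, and the deposited values are raw counts per gene, one table per library, not normalized, for both strands together and for each strand. The strand that held nearly all gene counts was used (the other held 1.15% to 2.02%). Reads within genes that share sequence are lost under unique mapping, which can lower the counts of CD300 family members.

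The count model was fitted with edgeR 4.0.16 under R 4.3.3 (TMM factors, quasi-likelihood test, Benjamini-Hochberg adjustment) in 1 model of the 4 groups. A gene was tested where all 3 libraries of some group exceeded 0.5 CPM, and called at an adjusted p under 0.05 and a log2 fold change of at least 2 in size. DESeq2 1.42.0 was an alternative. Folds use mean CPM, with each library at or under 3 counts in the lower group set to 3, which makes a fold a lower bound. That equal numbers mark LPS and PBS libraries of 1 culture is inferred from the numbers and not stated by the authors: deviations from group means correlated at 0.610 to 0.850 in every same-number pair, so the replicate number was also fitted as a block, and p-values otherwise measure the spread between these cultures. Replicates differed far beyond counting noise, so no library repeats another.

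The members and the gene lists were chosen with earlier results of these data known. Named genes were the members, Ptprc, the genes called as fallen and the next 3 not called, the 5 genes nearest to each member by correlation, tested genes of the lists, and 2 neighbours per side, and 1 gene that this rule names is not reported here. Genes of the lists that failed the filter are given by their counts, a choice made after their values were seen. Older symbols in the tables (Emr1 for Adgre1, Sfpi1 for Spi1) were matched through RefSeq synonyms. The alternatives tried were an FDR under 0.01, dropping the fold threshold, other size factors and filters, both strands, each stage alone, other yardsticks and each library left out. The code was tested on simulated counts. Gene positions are from GENCODE vM21 and promoters from RefSeq, and figures were drawn in Python.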

Additional observations from a re-analysis of the deposited data

How the results depend on the processing

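The count of 7 embryonic falls became 1 at an FDR under 0.01, 50 with the replicate block, 0 with each stage alone, 37 in DESeq2 and 3 without both embryonic replicate 3 libraries (a choice made after seeing the data), and ranged from 2 to 15 with single libraries left out. The 3 members were called in 0 cases at an FDR under 0.01 and with each stage alone, 1 without both replicate 3 libraries, and 1 to 3 with single libraries left out. Since they were chosen for being called, these counts describe the choice only. Embryonic rises numbered 244, and 102 at an FDR under 0.01, 394 with the replicate block, 4 with each stage alone, and 78 to 297 with single libraries left out. Adult falls went from 0 to 1 with no fold threshold, 2 with the block and 2 in DESeq2. Adult rises went from 55 to 15 at an FDR under 0.01, 209 with the block, 124 alone, 168 in DESeq2, 116 without both replicate 3 libraries, and 4 to 91 with single libraries left out.

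With the replicate block, the general myeloid list gained 1 rise, the resident macrophage receptors 1 fall and 1 rise (1 rise also in DESeq2, and 0 to 1 with single libraries left out) and the CD300 family 1 fall, and it changed no other call of a list or of a gene tested in adults. The 1 SLCO rise fell to 0 at an FDR under 0.01, with other size factors, with no filter, with both strands, with each stage alone and without both replicate 3 libraries, and was 0 to 1 with single libraries left out.

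The adult log2 fold change of C130050O18Rik turned to 0.02 with both strands and ranged from −0.67 to 0.21 with single libraries left out (0.21 without adult PBS replicate 1). That of Cd300lb ranged from −2.36 to −0.72 and its adjusted p from 0.0965 to 1.00 over 20 fits, and with each stage alone neither gene passed the filter. Relative to Csf1r instead of Ptprc, the median embryonic log2 changes were −3.98, −5.57 and −4.08 for C130050O18Rik, Cd300lb and Slco2b1, and −4.87 for Slco2b1 relative to the myeloid sum. The causes of these shifts were not tested, other than that a Ptprc count higher with LPS enlarges a fall relative to it. Few counts limit the adult values: Slco2b1 never passed 1 count in an adult library, and C130050O18Rik never passed 5.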
